A study of Oreochromis mossambicus with 12 samples.

Results

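acod1 and lacc1 are a pair of immune genes whose transcripts were measured by RNA sequencing in head-kidney leukocytes of tilapia, labelled Oreochromis mossambicus, held in primary culture. They are 2 of the 28921 gene symbols in the deposited table, were taken by symbol, and are each represented by 1 transcript. They were chosen by their difference in FPKM between bacteria and PBS, which was among the largest, so that difference, and the difference of co-treatment from the same PBS libraries, is described here without a test. The 4 groups had 3 libraries each. Co-treated cells received sodium nitrite at 1000 μM together with killed (heated) Streptococcus agalactiae, at 1 bacterium per cell, other cells received the bacteria alone or the nitrite alone, and control cells received PBS. All were collected after 12 h. All groups were mixed leukocytes plated overnight on collagen in medium with penicillin, streptomycin and tilapia serum; no label ties a library to a fish or a culture dish, so every p-value below reflects the scatter among these libraries alone, and that scatter may be technical. Neither a genotype nor an age is stated in the labels.

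acod1 encodes aconitate decarboxylase, which in mammals sits in the mitochondria of activated macrophages and turns cis-aconitate, an intermediate of the tricarboxylic acid (TCA) cycle, into itaconate. Itaconate inhibits succinate dehydrogenase, modifies the redox sensor KEAP1 and is toxic to bacteria that depend on the glyoxylate shunt; in zebrafish the gene, under its older name irg1, is switched on in macrophages by bacterial infection. lacc1 encodes a laccase domain protein that in mouse and human macrophages acts on purine nucleosides and on citrulline and is needed for full signalling downstream of the peptidoglycan receptor NOD2.

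Levels are given as FPKM, a fragment density per kilobase that is scaled for library size, as the authors deposited them; this unit is corrected for length, so levels of different genes can be set side by side. acod1 stood at 852, 441 and 593 FPKM in co-treated libraries 1 to 3, at 1146, 898 and 709 FPKM with bacteria, at 1.01, 0.65 and 2.95 FPKM with nitrite, and at 0.31, 0.47 and 1.46 FPKM with PBS. All 6 libraries with bacteria were far above all 6 without, and the ranges of co-treatment and bacteria overlapped, as did those of nitrite and PBS. The group means were 629 ± 208 FPKM with co-treatment, 918 ± 219 with bacteria, 1.54 ± 1.24 with nitrite and 0.747 ± 0.623 with PBS (SD, n = 3 each). Among the 28921 symbols acod1 ranked 62nd, 188th and 148th by FPKM in the co-treated libraries and 36th, 68th and 123rd with bacteria, against 12278th, 13317th and 10105th with nitrite and 14161st, 13689th and 11709th with PBS. It was thus among the most abundant transcripts of every library that had met the bacteria. In the other libraries, where it was at 0.31 to 2.95 FPKM, between 50.8% (PBS replicate 1) and 65.0% (nitrite replicate 3) of symbols were lower.

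lacc1 stood at 106, 55.8 and 93.6 FPKM in co-treated libraries 1 to 3, at 165, 154 and 169 FPKM with bacteria, at 3.07, 2.11 and 0.96 FPKM with nitrite, and at 4.35, 2.22 and 2.09 FPKM with PBS. The 3 co-treated libraries lay below the 3 bacteria libraries without overlap, and nitrite and PBS overlapped. The means were 85.0 ± 26.1 FPKM with co-treatment, 163 ± 7.66 with bacteria, 2.05 ± 1.06 with nitrite and 2.89 ± 1.27 with PBS (SD, n = 3 each). The bacteria libraries differed little among themselves (the SD was 4.70% of the mean), while the co-treated libraries spread more widely (30.6%); for acod1 those figures were 23.9% with bacteria and 33.04% with co-treatment. By FPKM lacc1 ranked between 744th and 1369th with co-treatment and between 451st and 490th with bacteria, against 9802nd to 12367th with nitrite and 8493rd to 11015th with PBS.

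In order of mean level both genes ran bacteria, co-treatment, and then nitrite and PBS, of which nitrite was the higher for acod1 and PBS the higher for lacc1. Neighbours in that order did not separate, except bacteria and co-treatment for lacc1 and, for both genes, the step between groups with and without bacteria.

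**Figure D1:**
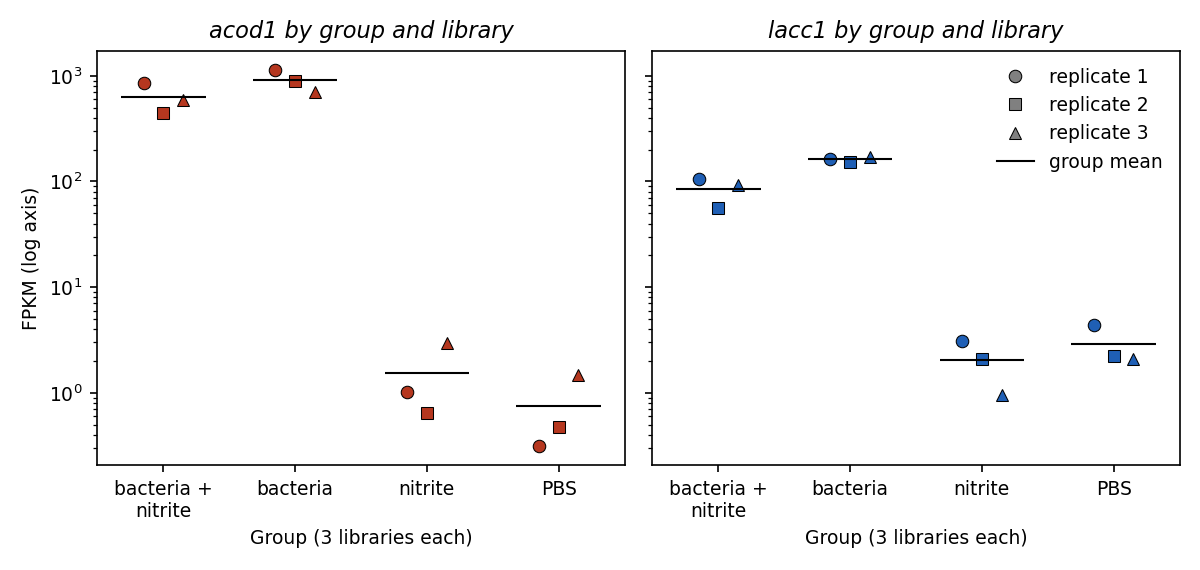
FPKM of acod1 (left panel) and lacc1 (right panel) in each of the 12 libraries, on a log axis, by group, with the symbol giving the replicate number and the line the group mean. For both genes all 6 libraries with bacteria sit far above the 6 without, and for lacc1 the co-treated libraries (55.8 to 106 FPKM) lie below the bacteria libraries (154 to 169 FPKM).

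PBS replicate 1 stood apart from the rest: its correlation with the other PBS libraries across genes was 0.85 and 0.81, against 0.95 between those. FPKM sums ran from 422129 to 503740 per library, and the absolute depth is unknown. Libraries sharing a replicate number departed from their group means in the same way, with r across genes of 0.42 to 0.92 in all 18 such pairs. Leukocyte genes were present, such as csf3r, the receptor for a granulocyte growth factor, at 104 to 224 FPKM, while the stromal markers col1a1 and lum were at 0 in all 12 libraries and pdgfrb and tagln averaged 5.50 and 34.9 FPKM.

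With bacteria against PBS, acod1 was 9.07 ± 0.37 higher and lacc1 5.44 ± 0.32 higher on the log2(FPKM + 1) scale (SE of the limma fit), the largest and the 23rd largest of all positive changes among the 12423 genes tested. These values chose the genes. In that comparison 37.0% of the tested genes were called in either direction at an adjusted p under 0.05, 10.7% were called higher, and in 13.8% the bacteria libraries were all above the PBS libraries. With co-treatment against the same PBS libraries the differences were 8.50 ± 0.37 for acod1 and 4.46 ± 0.32 for lacc1, where 39.0% of genes were called. Since 1 FPKM was added before the logarithm, the scale understates the change of genes that start low: at matched replicate numbers the plain FPKM ratio of bacteria to PBS was 3698, 1910 and 486 for acod1, and 37.9, 69.5 and 81.0 for lacc1. The acod1 ratio was highest at the number with the lowest PBS value (0.31 FPKM) and lowest at the number with the highest (1.46 FPKM).

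The response to bacteria in the presence of nitrite used libraries that the choice of genes did not. acod1 rose by 8.01 ± 0.37 on the log2(FPKM + 1) scale with co-treatment against nitrite (adjusted p = 3.46e-07 in limma's test over all 12423 genes), the second largest positive change. lacc1 rose by 4.83 ± 0.32 (adjusted p = 3.35e-06), the 29th largest. Both genes were higher in 3 of 3 replicate numbers, with FPKM ratios of 844, 679 and 201 for acod1 and of 34.4, 26.4 and 97.5 for lacc1, and their groups did not overlap; 33.9% of tested genes were called in either direction, 22.1% were higher at all 3 numbers, 10.6% were called higher and in 15.7% the co-treated libraries were all above the nitrite libraries. Libraries of the same replicate number are correlated across groups, so these libraries are not independent of those that chose the genes, and the result was already known when the genes were chosen.

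The next comparison asked whether adding nitrite altered the response to bacteria. For lacc1 the difference between co-treatment and bacteria was -0.98 ± 0.32 on the log2(FPKM + 1) scale (95% interval of the fit -1.68 to -0.28). It lay below 0 at 3 of 3 replicate numbers, where the FPKM of the co-treated library was 0.64, 0.36 and 0.55 of that of the bacteria library. Limma's unadjusted p was 0.0108, but adjusted over 12423 genes it did not pass (adjusted p = 1.00, and 0.626 with the replicate number as a block). In that blocked fit the 95% interval was -1.54 to -0.42. An exact permutation test of the 6 libraries that ignores the replicate numbers gave p = 0.10, two-sided, which is the smallest that 3 against 3 libraries allow. The lacc1 groups did not overlap; 3.85% of tested genes had all co-treated libraries below all bacteria libraries, and 3.32% had them all above. By size, lacc1 had the 4th most negative change of all 12423 genes, and also of the 1330 genes called higher with bacteria against PBS, whose median here was -0.02. Of the 50 genes with the largest rises with bacteria, which include both members, 72.0% had a change below 0 here. Their median was -0.15, and lacc1 was the lowest of them. This comparison shares the bacteria libraries with the one that chose the genes, which favours a value below 0. Its p-values and intervals are therefore not independent of that choice, and the position is a description. With estimated sample weights the lacc1 difference was -1.24 and passed (adjusted p = 0.0153 in limma's test), where 118 genes were called in all; the estimation of those weights stopped before it converged.

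For acod1 the difference between co-treatment and bacteria was -0.57 ± 0.37 (95% interval -1.39 to 0.25; adjusted p = 1.00 in limma's test, unadjusted p = 0.154). The co-treated FPKM was 0.74, 0.49 and 0.84 of that with bacteria at replicate numbers 1 to 3, lower at 3 of 3, while 24.0% of all tested genes were lower at all 3 numbers. The interval covers a rise of up to 0.25 and no change as well as a fall to well under the level with bacteria. acod1 ranked 63rd from the most negative change among all tested genes, 30th among the 1330 and 6th among the 50 with the largest rises with bacteria. As for lacc1, the choice of the gene by the bacteria libraries favours a value below 0.

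A single gene of the 12423 was called in this comparison (0.00805%), and 156 had an unadjusted p under 0.05. It is LOC100692258, an identifier without a gene name in the table, singled out here after its values were seen. It was listed at 0 in all 3 co-treated libraries, against 17476, 20799 and 18950 FPKM with bacteria. The table gave it 10335, 9187 and 9558 FPKM with nitrite and 9527, 7295 and 8120 FPKM with PBS. A value of exactly 0 beside such levels can be a failed estimate, so no fold is given.

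**Figure D2:**
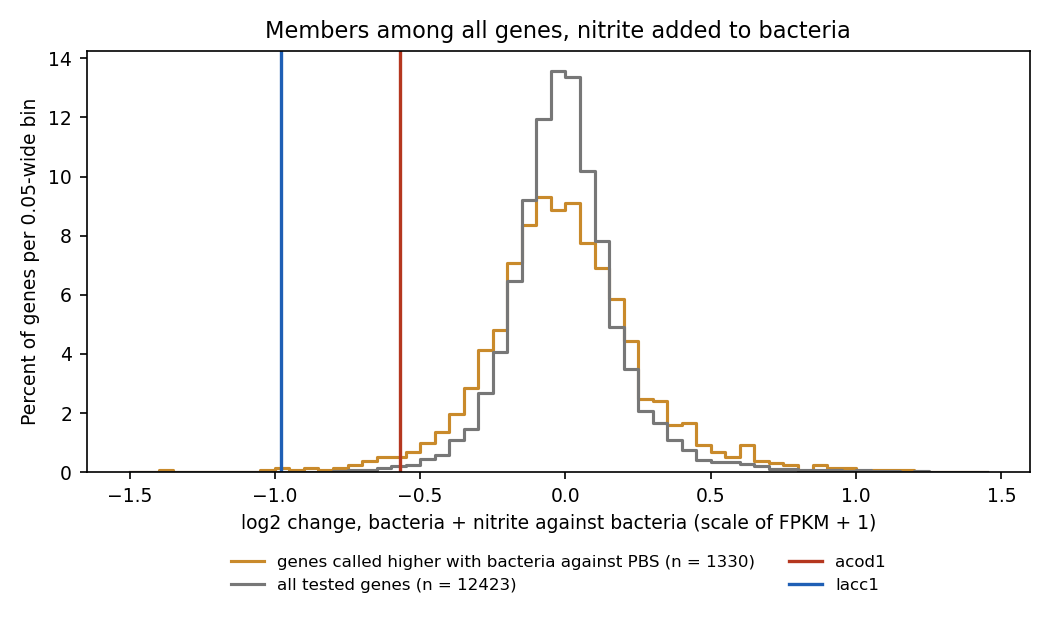
Share of genes (percent per bin of 0.05) by log2 change with co-treatment against bacteria, for the 12423 genes tested and for the 1330 called higher with bacteria against PBS; vertical lines mark acod1 (-0.57) and lacc1 (-0.98). The axis ends at 1.5 in either direction and leaves out 9 genes; both lines fall in the lower tail of the distributions.

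Nitrite alone was compared with PBS, in a test that shares the PBS libraries with the comparison that chose the genes, which favours a value above 0. acod1 differed by 0.49 ± 0.37 on the log2(FPKM + 1) scale (95% interval -0.33 to 1.31, adjusted p = 1.00 in limma's test). The nitrite library had 3.26, 1.38 and 2.02 times the FPKM of the PBS library of the same number, higher at 3 of 3, as were 13.2% of tested genes. lacc1 differed by -0.37 ± 0.32 (95% interval -1.07 to 0.34, adjusted p = 1.00) and was lower at 3 of 3 numbers, with ratios of 0.71, 0.95 and 0.46, as were 17.5% of genes. Limma called 0 of 12423 genes in this comparison, while 74 had an unadjusted p under 0.05. These are values of a few FPKM at an unknown depth. Leaving out single libraries gave 0.12 to 0.76 for acod1 (lowest without nitrite replicate 3, highest without PBS replicate 3, 0.31 without PBS replicate 1 and 0.75 without nitrite replicate 2). For lacc1 it gave -0.61 to -0.08 (without nitrite replicate 1 and without nitrite replicate 3, with -0.11 without PBS replicate 1). Other settings ran from 0.21 (sample weights) to 0.93 (pseudocount 0.1) for acod1 and from -0.54 (pseudocount 0.1) to -0.06 (sample weights) for lacc1.

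The interaction, the effect of bacteria with nitrite minus that without, was -1.06 ± 0.53 for acod1 (95% interval -2.22 to 0.10) and -0.61 ± 0.45 for lacc1 (95% interval -1.60 to 0.38) on the log2(FPKM + 1) scale. It subtracts the difference of bacteria from PBS by which the genes were chosen, which favours a negative value. Its test is therefore not independent of that choice. Limma's adjusted p was 1.00 for each, with 1 gene called in all (0.00805% of those tested, again LOC100692258) and 50 at an unadjusted p under 0.05. For acod1 the sign of the nitrite difference was positive at all 3 numbers without bacteria and negative at all 3 with bacteria, but the interaction did not pass its test. The share of all tested genes with such a change of sign was not counted. Of the 50 genes with the largest rises with bacteria, 80.0% had an interaction below 0 (median -0.32). The acod1 interaction was -0.69 without nitrite replicate 3. For lacc1 the interaction was -0.34 without co-treatment replicate 2, -0.37 without nitrite replicate 1 and -1.18 with sample weights. With the replicate block its 95% interval was -2.13 to 0.02 for acod1 and -1.41 to 0.18 for lacc1.

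**Figure D3:**
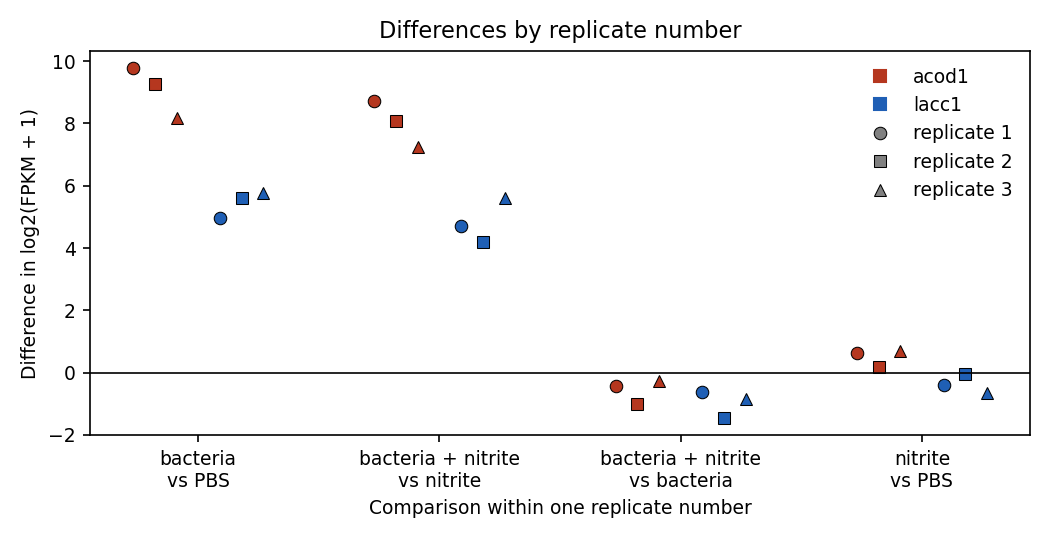
Difference in log2(FPKM + 1) between libraries of the same replicate number, for acod1 (red) and lacc1 (blue) in 4 comparisons, with the symbol giving the number and the line at 0 meaning no difference. The differences with bacteria are between 4.19 and 9.77, and those with nitrite between -1.45 and 0.68.

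Both genes can be set against each other within a library. The FPKM ratio of acod1 to lacc1 was 8.06, 7.91 and 6.34 in co-treated libraries 1 to 3, 6.96, 5.82 and 4.19 with bacteria, 0.33, 0.31 and 3.07 with nitrite, and 0.07, 0.21 and 0.70 with PBS. acod1 thus exceeded lacc1 in every library with bacteria and was below it in 5 of the 6 others, nitrite replicate 3 being the exception. At each of the 3 replicate numbers the ratio was higher with co-treatment than with bacteria, and the ranges overlapped. The log2 ratios differed by 0.42, with p = 0.20 in a two-sided exact permutation test that ignores the replicate numbers; with 3 against 3 libraries that test cannot go below 0.10, so it decides nothing, and the bacteria libraries are among those that chose the genes.

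Within groups the order of the libraries was the same for both genes with co-treatment (replicate 1, then 3, then 2) and differed in the other groups. Replicate 3 had the highest acod1 of the nitrite and PBS libraries and the lowest of the bacteria libraries, while lacc1 was lowest in replicate 3 of nitrite and of PBS. Over the 12 libraries, Pearson's r between the deviations of acod1 and lacc1 from their group means was -0.28 (Spearman's rho -0.35), given as a description because the libraries of a group share their mean.

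**Figure D4:**
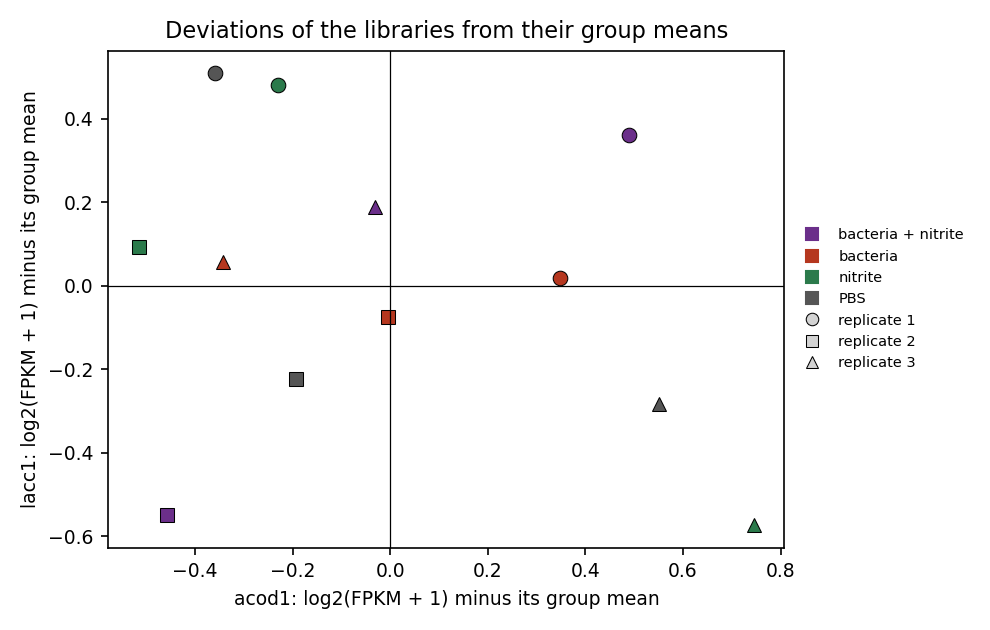
Deviation of each of the 12 libraries from its group mean in log2(FPKM + 1), acod1 on the horizontal and lacc1 on the vertical axis, with colour giving the group and symbol the replicate number. The points do not run along a rising line (Pearson's r = -0.28 over 12 libraries).

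Genes with the most similar pattern were found as the highest Pearson's r of log2(FPKM + 1) over the 12 libraries, among named symbols; these r largely reflect the gap between libraries with and without bacteria. Closest to acod1 were suox, the mitochondrial sulfite oxidase (r = 0.998), the sorting nexin snx10, which takes part in endosome and lysosome traffic (0.997), tnip2, an inhibitor of NF-kB signalling (0.997), the kinase bmp2k (0.997) and tnfaip3, a ubiquitin-editing inhibitor of NF-kB (0.996). suox had 66.1, 53.2 and 76.5 FPKM with co-treatment, 71.3, 80.1 and 63.7 with bacteria, 0.16, 0.31 and 1.09 with nitrite and 0.03, 0.18 and 0.66 with PBS. Like acod1, suox was highest in replicate 3 of the nitrite and of the PBS libraries, a likeness that its choice by r favours. Closest to lacc1 were klhl5, a kelch protein (0.992), tnip1, another inhibitor of NF-kB signalling (0.987), the lysosomal chloride transporter clcn7 (0.986), the ubiquitin-like ubl3 (0.985) and smpdl3a, a phosphodiesterase related to acid sphingomyelinase that acts on nucleotides (0.985). The members themselves had r = 0.98 with each other, with 27 named symbols closer to lacc1 than acod1 and 90 closer to acod1 than lacc1.

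When the group means were removed, the genes whose deviations were most like those of acod1 were lpin2, a phosphatidate phosphatase (r = 0.944), pkm, the glycolytic pyruvate kinase (0.939), tnip2 (0.938), the ubiquitin ligase rnf19b (0.929) and the potassium channel gene kcnj2 (0.927). pkm had 1009, 881 and 864 FPKM with co-treatment, 1054, 965 and 931 with bacteria, 387, 354 and 541 with nitrite, and 379, 418 and 494 with PBS. As with acod1, replicate 1 was the highest with bacteria and replicate 3 the highest without, a likeness that the choice of pkm by its deviations favours. For lacc1 they were asb8 (0.950), ivns1abp (0.929), asphd2 (0.926), rars2 (0.900) and lg5h6orf89 (0.895). The lists for acod1 and lacc1 shared no gene.

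The pathways around the genes were described with 6 lists of 230 symbols, 135 of them found in the table and 115 tested; many tilapia genes carry only LOC identifiers, so the lists are incomplete. Counts below are for co-treatment against nitrite, where 10.6% of all tested genes were called higher and 23.3% lower and the median log2 change of all genes was -0.32 (-0.04 after median-ratio scaling).

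Among 20 tested TCA cycle and citrate genes 3 rose and 3 fell, with a median of -0.48. sucla2, a subunit of succinyl-CoA synthetase, an enzyme that in mammals also activates itaconate for breakdown, rose by 2.05 ± 0.22 (adjusted p = 1.00e-04 in limma's test). Its FPKM was 86.6, 79.5 and 126 with co-treatment, 101, 89.7 and 120 with bacteria, 18.8, 21.0 and 28.0 with nitrite and 19.7, 18.9 and 25.6 with PBS. All libraries with bacteria were higher than all without. By group, co-treated libraries were all above nitrite libraries in 15.7% of tested genes, and bacteria libraries all above PBS libraries in 13.8%. suclg1, the alpha subunit of the same enzyme, rose by 0.80 ± 0.22 (called in 17 of 21 alternatives). A further subunit of that enzyme, suclg2, went the other way, with a change of -0.70 ± 0.22 (adjusted p = 0.0334 in limma's test, called in 15 of 21 alternatives). Here and below, the 21 alternatives are the other planned settings and the leaving out of each library in turn. A gene that a filter removed counts as not called. acly, which splits cytosolic citrate, rose by 1.24 ± 0.29, while dld, a subunit shared by the 2-oxoacid dehydrogenases, fell by 1.17 ± 0.26. sdha, a subunit of the succinate dehydrogenase that itaconate inhibits in mammals, was looked up after its values were known and fell by 0.66 ± 0.20 (adjusted p = 0.0282, called in 14 of 21 alternatives). With the replicate block 4 TCA genes rose and 9 fell. The number that fell was 7 without PBS replicate 1 and 1 after median-ratio scaling or without co-treatment replicate 1 or 2 or nitrite replicate 3; 2 rose without co-treatment replicate 3 or nitrite replicate 1 or 2.

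Of 20 tested genes for the fate and targets of itaconate 4 rose and 5 fell, with a median of -0.45; sucla2, suclg1, suclg2, sdha and sdhc are also in the TCA list. hps1, part of the complex that activates Rab32, a GTPase that in mouse macrophages brings itaconate to vacuoles holding Salmonella, rose by 1.32 ± 0.18, and pkm by 1.12 ± 0.21. hps4, also in this list, was not called (-0.93 ± 0.57). mut, the mitochondrial methylmalonyl-CoA mutase that a product of itaconate blocks in mammals, fell by 1.19 ± 0.23. With the replicate block 4 rose and 6 fell, sdhc being called as well. The count that fell was 2 after median-ratio scaling and between 1 and 7 when single libraries were left out, 1 without co-treatment replicate 1 or 2, 2 without nitrite replicate 2 or 3, and 3 without co-treatment replicate 3 or nitrite replicate 1.

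Of 24 tested candidate regulators of acod1, drawn from what is known in mammals, 10 rose and 3 fell, with a median of 0.76. tnfaip3 rose by 3.12 ± 0.21, fosl1, an AP-1 subunit, by 2.90 ± 0.38, the kinase irak1 by 2.28 ± 0.16 and its adaptor myd88 by 1.65 ± 0.24. fosl1 had 79.7, 117 and 52.7 FPKM with co-treatment, 39.7, 57.5 and 29.0 with bacteria, 7.82, 8.15 and 14.3 with nitrite and 3.31, 5.83 and 8.23 with PBS. Its difference between co-treatment and bacteria, 0.95 ± 0.38, was opposite in sign to those of acod1 and lacc1, and did not pass (adjusted p = 1.00 in limma's test). Median-ratio scaling left 2 that fell, and 5 fell without PBS replicate 1 or when the replicate number was a block.

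Of 18 tested genes for NOD signalling, arginine use and other partners of lacc1, 6 rose and 1 fell, with a median of 0.39; quantile normalization left 0 that fell, and in the blocked fit 7 rose and 2 fell. arg2, the mitochondrial arginase, rose by 3.99 ± 0.52, card9 by 2.47 ± 0.30, ripk2, the kinase that carries the signal of NOD receptors, by 1.92 ± 0.21, and nod2 itself by 1.67 ± 0.33. nod2 had 98.2, 52.6 and 85.5 FPKM with co-treatment, 143, 94.7 and 103 with bacteria, 24.8, 16.9 and 29.9 with nitrite and 50.3, 22.9 and 28.8 with PBS. Between co-treatment and bacteria the nod2 ranges overlapped (difference -0.55 ± 0.33, adjusted p = 1.00 in limma's test). At all 3 replicate numbers the co-treated library was lower for nod2, ripk2 and arg2, as for 24.0% of all tested genes. It was higher at all 3 for card9, as for 21.1% of all tested genes.

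Of 15 tested genes in the list of purine nucleoside enzymes 0 rose and 5 fell in limma's test, with a median of -0.68. With the replicate block 1 rose and 8 fell. The ectoenzyme entpd1, which hydrolyses extracellular ATP, fell by 4.36 ± 0.68 and adenosine deaminase ada by 1.55 ± 0.26. The deaminase-like adal fell by 0.78 ± 0.19 and the ahcy-like ahcyl1 by 1.44 ± 0.42. For these 2 likeness of name does not establish the same enzyme activity. ahcy itself, also in the list, was not called (-0.16 ± 0.60). ada had 9.92, 12.2 and 9.65 FPKM with co-treatment and 9.36, 12.2 and 9.57 with bacteria, against 32.96, 42.9 and 25.0 with nitrite and 46.8, 34.0 and 23.2 with PBS. ada therefore ran opposite to lacc1 between libraries with and without bacteria. The count that fell was 3 without co-treatment replicate 1 or nitrite replicate 3, and 3 after quantile normalization.

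Of 23 tested fatty acid oxidation and uptake genes 1 rose and 10 fell, with a median of -1.03. The thiolase acaa2 fell by 1.49 ± 0.20, the peroxisomal hsd17b4 by 1.06 ± 0.16 and lipoprotein lipase lpl by 3.95 ± 0.69, while the fatty acid binding protein fabp7 rose by 5.30 ± 0.93. acaa2 had 9.74, 13.9 and 14.9 FPKM with co-treatment and 9.62, 14.6 and 15.5 with bacteria, against 38.9, 39.7 and 33.9 with nitrite and 33.5, 36.1 and 36.1 with PBS. All libraries with bacteria were lower than all without. By group, co-treated libraries were all below nitrite libraries in 38.8% of tested genes, and bacteria libraries all below PBS libraries in 34.6%. With the replicate block 2 rose and 15 fell, and 15 fell without PBS replicate 1. Of all 115 tested pathway genes 0 were called between co-treatment and bacteria or between nitrite and PBS.

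**Figure D5:**
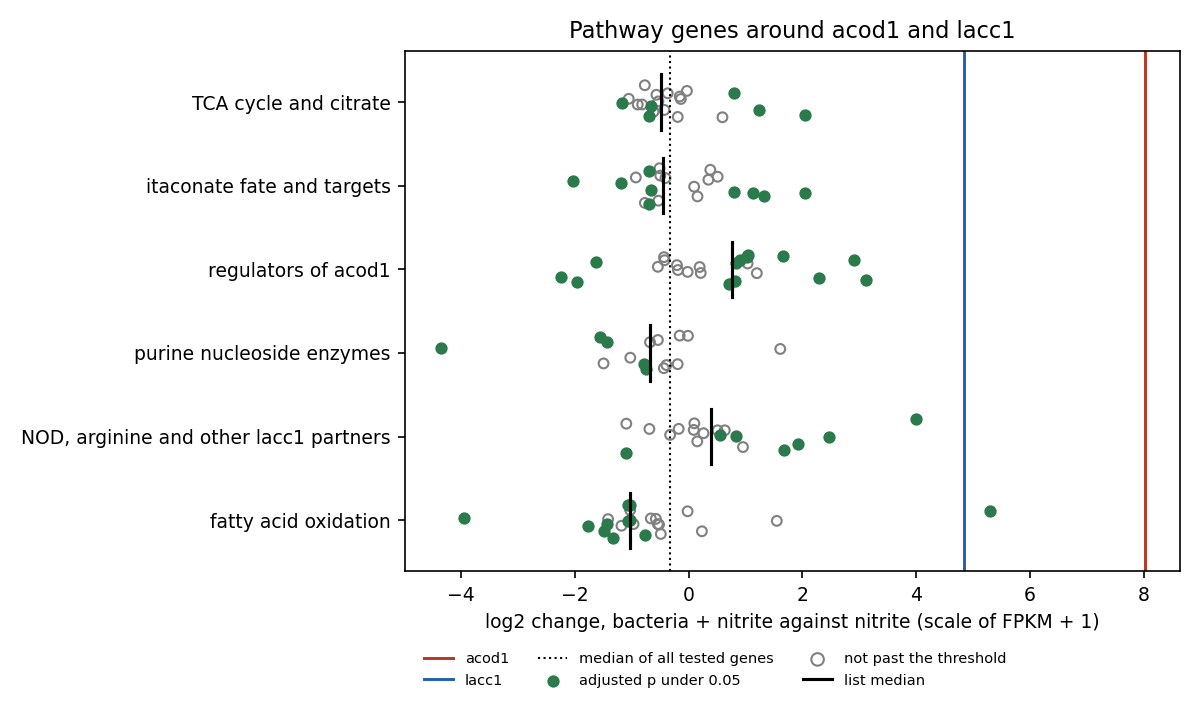
log2 change with co-treatment against nitrite for each tested gene of the 6 lists, filled where the adjusted p was under 0.05, with black bars for list medians, a dotted line for the median of all tested genes (-0.32), and coloured lines for acod1 (8.01) and lacc1 (4.83). Regulators of acod1 lie mostly to the right (median 0.76) and fatty acid oxidation genes mostly to the left (median -1.03).

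Markers of cell types moved with the bacteria as well, and in these bulk libraries fewer cells of a type and less RNA per cell cannot be told apart. Of 18 macrophage markers 4 were in the table and 3 were tested, and all 3 fell with co-treatment against nitrite, with log2 changes of -4.03 ± 0.64 for csf1r, -1.15 ± 0.25 for mafb and -0.89 ± 0.27 for marco; mrc1 was at 0 in 7 of 12 libraries and at most 0.06 FPKM in the others. After median-ratio scaling, or without co-treatment replicate 2 or 3 or nitrite replicate 1 or 2, 2 of the 3 fell. Their summed level was 163 to 223 FPKM with co-treatment, 174 to 216 with bacteria, 278 to 556 with nitrite and 303 to 482 with PBS. Of 13 neutrophil markers 4 were tested and 2 rose, ncf1 by 0.83 ± 0.21 and mmp13 by 1.63 ± 0.57 (adjusted p = 0.0473 in limma's test, called in 10 of 21 alternatives), with summed levels of 740 to 1201 FPKM with co-treatment, 661 to 1269 with bacteria, 363 to 722 with nitrite and 522 to 681 with PBS. mmp13 averaged 3.33 FPKM and was removed by the stricter of the filters on mean FPKM, where it counts as not called. With the replicate block 3 of 4 rose, mmp9 being called as well (1.43 ± 0.20, adjusted p = 0.000383 in limma's test). csf3r was called in neither fit (-0.07 ± 0.22 unblocked, adjusted p = 0.837 in limma's test). By mean level the neutrophil sum was largest in mmp9 (365 FPKM) and ncf1 (249 FPKM), against 144 FPKM for csf3r. ncf1 is also in the list of lacc1 partners. Between co-treatment and bacteria the summed levels overlapped for both lists.

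The widest gap was in the list for eosinophil-like granulocytes, of whose 4 markers 3 were in the table and 1 was tested. Its sum is nearly all from the single gene epx, since gata1 and gata2 were at most 0.55 and 0.35 FPKM. epx, a granule peroxidase, fell by 6.03 ± 0.38 with co-treatment against nitrite (adjusted p = 2.53e-06 in limma's test), and the summed level was 53.1 to 156 FPKM with co-treatment, 102 to 175 with bacteria, 4983 to 6662 with nitrite and 4714 to 6764 with PBS. The highest library with bacteria was thus far below the lowest without. Of the tested markers in the other lists, 2 of 5 B cell, 3 of 4 thrombocyte, 3 of 4 progenitor and 2 of 2 fibroblast markers fell and none rose; of the thrombocyte markers 1 fell after median-ratio scaling and 0 without co-treatment replicate 1 or nitrite replicate 2, 3 B cell markers fell with the replicate block, and f13a1 was at 0 in all 12 libraries. Summed levels of the B cell list were 32.9 to 49.0 FPKM with co-treatment, 28.0 to 40.2 with bacteria, 117 to 167 with nitrite and 117 to 208 with PBS. Those of the progenitor list were 70.0 to 107 with co-treatment, 61.9 to 79.7 with bacteria, 215 to 321 with nitrite and 232 to 338 with PBS. Both sums were thus lower in every library with bacteria than in every library without, as was epx. Among single tested genes, co-treated libraries were all below nitrite libraries in 38.8%, and bacteria libraries all below PBS libraries in 34.6%. The B cell sum came mostly from btk and swap70 (means of 65.8 and 19.5 FPKM), which were the ones called. In the unblocked fit cd79a (-0.10 ± 0.34), cd79b (-0.27 ± 0.42) and pax5 (-0.57 ± 0.30) were not called with co-treatment against nitrite. The progenitor sum came mostly from cebpa (mean 128 FPKM), and kit was not called (-0.38 ± 0.40). 1 of 3 T cell and 1 of 2 erythroid markers rose and none fell (0 erythroid markers without co-treatment replicate 2 or 3 or nitrite replicate 1 or 2), and of 3 endothelial markers 1 rose and 2 fell. cebpa, counted among the progenitor markers, is also in the list of acod1 regulators. The part of these shifts in the levels of acod1 and lacc1 was not tested.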

How the data were processed

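Libraries came from Trizol RNA and an Illumina TruSeq kit, per the labels' protocols. Per the submitters' processing notes the tools included Trimmomatic 0.30, HISAT2 2.0.1 and HTSeq 0.6.1. Which program gave the FPKM, on which genome build and annotation, is not given in the sources used here. The authors deposited FPKM values of 58070 transcripts to 2 decimals. FPKM hold no counts. A rough estimate from the coarse steps of low values put the deepest library at about 1.34 times the shallowest. That estimate took only the values 1.0, 1.222 and 1.344 over the 12 libraries, so it is no measured depth.

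Here transcripts were summed per symbol, and the 12423 genes averaging 1 FPKM or more were tested on log2(FPKM + 1) with limma 3.58.1 in R 4.3.3 (all 4 groups in 1 fit, empirical Bayes with a trend, 8 residual degrees of freedom, Benjamini-Hochberg adjustment, threshold 0.05). The script was tested on simulated data. Exact permutation tests used scipy 1.17.1.

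The members, lists and tests were chosen with earlier results of these data known. Named genes are, per pathway list, up to 4 called members with the smallest adjusted p in co-treatment against nitrite, up to 3 per marker list, of which part are given, and the 5 genes most like each member. sdha, suclg2, hps4, ahcy, csf3r, LOC100692258 and other markers that were not called were named after their values were seen.

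The titles number the replicates. All 18 same-numbered pairs correlated above 0.1, and each of the 12 libraries was closest to libraries of its own number, so the numbers were taken to pair the libraries. Reported values come from the unblocked fit, which ignores that pairing, unless the replicate block is named. Blocked counts are given beside each list whose count they change.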

Additional observations from a re-analysis of the deposited data

Results flagged for a closer look

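The nitrite difference of acod1 had opposite signs without and with bacteria at every replicate number. Its FPKM was 3.26, 1.38 and 2.02 times that of PBS with nitrite alone, and 0.74, 0.49 and 0.84 of that of bacteria with co-treatment. The interaction was -1.06 on the log2(FPKM + 1) scale and did not pass limma's test (adjusted p = 1.00). The difference without bacteria rests on values of at most 2.95 FPKM. Of all tested genes 13.2% were higher at all 3 numbers with nitrite against PBS. With co-treatment against bacteria 24.0% were lower at all 3 numbers. The share of genes with both was not counted. Each difference uses libraries by which acod1 was chosen, which favours these signs.

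LOC100692258 was flagged because its interaction passed, at -14.44 on the log2(FPKM + 1) scale (adjusted p = 2.27e-10 in limma's test). The fitted value rests on 3 co-treated libraries listed at 0 and is no bound.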

How the results depend on the processing

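Over 11 alternatives and the leaving out of each library, no result for acod1 or lacc1 changed direction. Several of the alternatives could not change it. With all 12 libraries, the filters on mean FPKM, the choice of the highest transcript and the replicate block leave these log2 changes as they are. Co-treatment against nitrite passed throughout, with leave-one-out ranges of 7.75 to 8.38 for acod1 and 4.55 to 5.11 for lacc1. With a pseudocount of 0.1 or 3 the described difference of bacteria from PBS was 10.3 or 7.93 for acod1 and 5.85 or 4.84 for lacc1, and that of co-treatment from PBS 9.73 or 7.36 for acod1 and 4.86 or 3.88 for lacc1. Co-treatment against bacteria ranged from -0.81 to -0.34 for acod1 and from -1.16 to -0.70 for lacc1 when single libraries were left out. In that comparison lacc1 passed only with sample weights (-1.24). The bacteria libraries used there are among those that chose the genes, which favours a value below 0. With the replicate block no call on acod1 or lacc1 changed.

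Sample weights raised the count of called genes to 8227 for bacteria against PBS, 7614 for co-treatment against PBS, 7580 for co-treatment against nitrite and 118 for co-treatment against bacteria, and that of pathway genes to 88, 82, 78 and 3 in the same order. With the replicate block 6329 genes were called for co-treatment against nitrite. For co-treatment against bacteria 4 were called with the block, 4 with the block and median-ratio scaling, 3 with the block and quantile normalization and 5 with no filter. The cause was not tested. The blocked fits with another scaling, and the blocked leave-one-out fits, were chosen after seeing the data. FPKM give no depth, so no counting interval can be set on the few FPKM of acod1 and lacc1 without bacteria.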
